A study of Homo sapiens with 11 samples.

Results

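The genes of the E2F transcription factors and of the pocket proteins that bind them were examined in MDA-MB-231 cells after knock-down (KD) of the histone variant macroH2A1.1 (mH2A1.1). The group held 10 genes out of 23167 in the count tables. These were 7 E2F genes (E2F1, E2F2, E2F3, E2F4, E2F5, E2F7 and E2F8) and 3 pocket protein genes (RB1, RBL1 and RBL2). They were selected on the WT against KD contrast of these same libraries, with E2F3 and RBL1 to be set against their families. Fold changes of the 10 genes are therefore given as a description, without a test. Of the 10, 9 passed the filter on low counts. E2F2 did not, with 0 counts in each of the 4 RNA-seq libraries, which allows up to 3 counts in each.

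MDA-MB-231 is an established human triple-negative breast cancer (TNBC) line. RNA-seq covered 2 WT and 2 mH2A1.1 KD libraries of total RNA, and ChIP-seq of untreated WT cells gave 1 list of peaks for mH2A1.1, from a custom antibody, and 1 for total mH2A1. For KD, an siRNA against mH2A1.1 was transfected at 11 nM and cells were collected after 3 days, whereas WT cells received the transfection reagent INTERFERin without siRNA. No library with a non-targeting siRNA was compared, so an effect of siRNA as such cannot be told apart from the loss of mH2A1.1.

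E2F factors bind the promoters of genes needed for S phase, most of them as dimers with a DP partner. E2F1, E2F2 and E2F3 are known as activators, E2F4 and E2F5 act mainly as repressors together with pocket proteins, and E2F7 and E2F8 are atypical repressors that bind DNA without a DP partner. The pocket proteins RB1, RBL1 (p107) and RBL2 (p130) hold E2F factors in check until cyclin-dependent kinases phosphorylate them.

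The counts on genes summed to between 2309549 (KD replicate 2) and 9794674 (WT replicate 1) per library. KD replicate 2 stood apart, with 0 counts on chromosomes 22 and X and 30 on chromosome 21. The 1722 genes of these chromosomes were not measured there and were left out of the fit. None of the 10 genes lies on them. Nothing in the labels says that replicates came from separate cultures, so p-values measure the spread between these samples, which may be technical. MACROH2A1, the targeted gene, had 389 ± 6.20 CPM (normalized counts scaled to library size) in WT and 287 ± 18.6 CPM in KD (SD, n = 2). Its log2 fold change was -0.44 (SE 0.173), with an adjusted p = 0.205 in edgeR and 0.182 in DESeq2. Reads of the splice isoforms mH2A1.1 and mH2A1.2 are summed in the gene count, and which of the study's siRNAs was used for RNA-seq is not given in the sources used here. All 5 mesenchymal-like basal markers (VIM, CD44, EGFR, AXL and CAV1) were counted in every library, with a summed level of 7021 and 7169 CPM in WT and 7676 and 10112 CPM in KD. ESR1 and PGR, the hormone receptors that define luminal breast epithelium, were at 0 throughout, and FOXA1 had at most 1 count in a library. The luminal marker GATA3, however, was counted in every library, with 18.4 ± 0.168 CPM in WT and 21.2 ± 4.82 CPM in KD. CDH1 had 2.41 ± 0.130 CPM in WT and 1.37 ± 1.40 CPM in KD. The luminal list summed to between 18.1 and 26.9 CPM, the endothelial list to at most 5.86 CPM and the 3 leukocyte genes in the tables to at most 0.395 CPM. In bulk RNA, fewer cells of a type and less RNA per cell cannot be told apart.

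The upstream sequences of E2F3, RBL1 and E2F1 are shown first. These are the 3 of the 10 genes with an mH2A1.1 peak at their start, and E2F1 is the activator against which E2F3 is compared below. Each line gives the 250 bases before the RefSeq start (GRCh38.p14) on the strand of the gene, 5′ to 3′, and capitals mark matches to 4 E2F motifs on either strand. E2F3 is on the plus strand at chr6:20401879-20493714, and its line covers chr6:20401629-20401878. RBL1 is on the minus strand at chr20:36996349-37095997, and its line covers chr20:37095998-37096247. E2F1 is on the minus strand at chr20:33675477-33686385, and its line covers chr20:33686386-33686635.
E2F3: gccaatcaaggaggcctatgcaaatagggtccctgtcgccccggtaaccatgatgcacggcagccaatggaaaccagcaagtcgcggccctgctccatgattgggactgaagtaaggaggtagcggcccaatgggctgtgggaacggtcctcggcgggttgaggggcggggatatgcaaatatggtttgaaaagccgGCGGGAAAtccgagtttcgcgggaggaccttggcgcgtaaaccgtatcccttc
RBL1: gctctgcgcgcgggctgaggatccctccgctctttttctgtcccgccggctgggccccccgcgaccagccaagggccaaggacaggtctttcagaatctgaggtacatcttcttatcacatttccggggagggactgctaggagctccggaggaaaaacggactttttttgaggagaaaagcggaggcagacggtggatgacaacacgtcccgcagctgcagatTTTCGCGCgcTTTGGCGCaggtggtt
E2F1: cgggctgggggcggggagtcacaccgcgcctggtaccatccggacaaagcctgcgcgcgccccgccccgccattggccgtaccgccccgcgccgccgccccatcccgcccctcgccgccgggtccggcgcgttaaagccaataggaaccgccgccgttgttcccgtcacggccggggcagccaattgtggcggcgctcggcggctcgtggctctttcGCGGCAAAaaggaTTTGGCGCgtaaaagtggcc
The motifs searched were TTTCGCGC, TTTGGCGC, TTTCCCGC and TTTGCCGC, on both strands. The RBL1 line holds TTTCGCGC from 26 to 19 bases and TTTGGCGC from 16 to 9 bases before the start. The E2F1 line holds TTTGCCGC on the other strand from 33 to 26 bases and TTTGGCGC from 20 to 13 bases before it. The E2F3 line holds 1 match, TTTCCCGC on the other strand from 53 to 46 bases before the start. It also holds TTTGAA (the CHR motif of genes of late cell cycle) from 65 to 60 bases before the start. E2F3 has another RefSeq start 1735 bases inside the gene, and the window there holds 0 E2F motifs and 0 matches to TTTGAA. E2F2 has TTTGGCGC from 42 to 35 bases before its start. No match to these 4 motifs was found in the windows of E2F4, E2F7 and RBL2. A window of RBL2 also holds TTTGAA, downstream of its RefSeq start. In windows of 300 bases (250 before and 50 after the start), an E2F motif was found in 3.31% of all 35116 RefSeq promoters and in 4.94% of the 13149 promoters of tested genes. TTTGAA was found in 15.2% and 10.8%. RB1 has its RefSeq entry 172706 bases inside the annotated gene, so it gives no sequence for the main start, and E2F5 and E2F8 have no entry in the promoter table. A match describes the letters of the window and does not show binding.

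In WT cells the 9 counted genes spanned a wide range of levels. On the scale of CPM per kilobase of exon (RPKM), E2F7 was highest at 41.2 ± 2.02 (SD, n = 2). It was followed by E2F1 at 33.3 ± 4.25, RBL1 at 24.7 ± 0.299, RB1 at 22.1 ± 2.18 and E2F3 at 19.8 ± 1.23 RPKM. E2F4 at 17.1 ± 1.61, E2F8 at 17.1 ± 1.31, RBL2 at 6.16 ± 0.00929 and E2F5 at 2.37 ± 0.152 RPKM came next. The 2 WT values of RB1 overlapped with those of E2F3, and those of E2F4 with those of E2F8. With merged exon lengths, all other neighbours in this order were apart in the 2 WT libraries. The order depended on the length used. Per kilobase of the canonical transcript, RB1 was at 29.8 and E2F4 at 29.2 RPKM, above RBL1 at 25.9 and E2F3 at 20.4, and RBL2 was at 10.3 and E2F5 at 7.22. E2F7 at 45.3 and E2F1 at 33.3 RPKM were the highest with either length, and RBL2, E2F5 and E2F2 the lowest. With either length E2F1 was above E2F3 among the activators and E2F7 above E2F8 among the atypical repressors, and E2F5, at the 23.1st percentile of WT level among tested genes, was the weakest counted gene of the group.

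**Figure D1:**
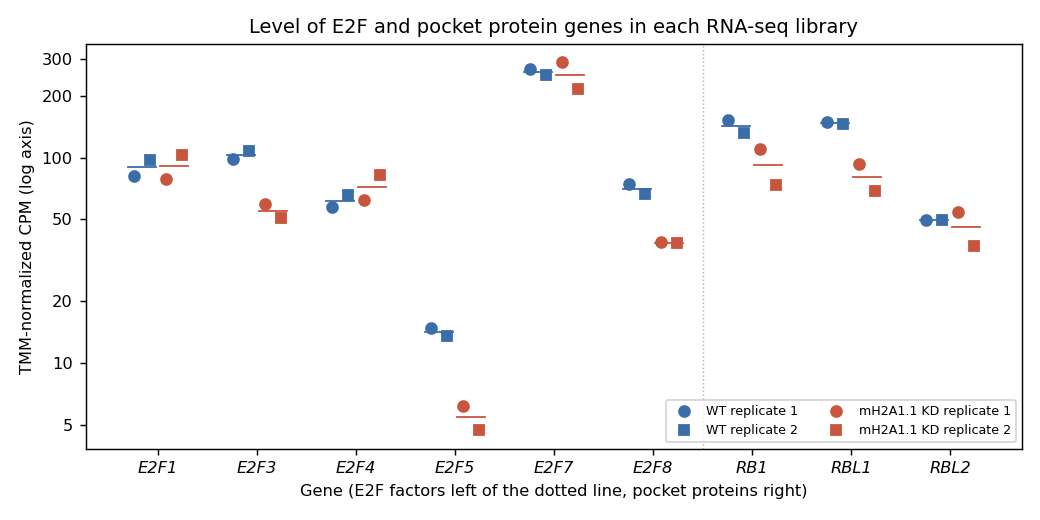
TMM-normalized CPM (log axis) of the 9 counted genes in each RNA-seq library, with WT in blue and mH2A1.1 KD in red, circles for replicate 1 and squares for replicate 2, and short lines for group means. Both KD points lie under both WT points for E2F3, E2F5, E2F8, RB1 and RBL1, and the groups overlap for E2F1, E2F4, E2F7 and RBL2.

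Among the activators, E2F3 had 932 and 814 counts in WT and 315 and 108 counts in KD. On the scale of TMM-normalized CPM this was 98.0 and 107 in WT replicates 1 and 2, and 59.5 and 51.0 in KD replicates 1 and 2. KD was lower in both replicates, and the fitted level was 1.84-fold lower. The log2 fold change was -0.88 (SE 0.186). E2F1, in contrast, had 81.5 and 97.7 CPM in WT and 79.0 and 103 CPM in KD, and the groups overlapped. Its log2 fold change was 0.01 (SE 0.211). The read counts of both genes in the same library give a comparison that needs no normalization for library size. Such a ratio is not corrected for exon GC content, which was 47.2% for E2F3 and 61.6% for E2F1. With the length and GC offsets described below, their log2 fold changes were -0.87 and -0.45. The ratio of E2F3 to E2F1 counts was 1.20 and 1.096 in WT, and 0.754 and 0.495 in KD. Hence E2F3 gave more reads than E2F1 in both WT libraries and fewer in both KD libraries.

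The E2F repressors that work with pocket proteins went apart. E2F5 had 14.8 and 13.5 CPM in WT, and 6.23 and 4.73 CPM in KD. It showed the lowest log2 fold change of the group, -1.31 (SE 0.270), on few reads. Its counts were 141 and 103 in WT, and 33 and 10 in KD, and the exact Poisson 95% interval of the last is 4.80 to 18.4 counts, which covers counting error only. E2F5 shares 997 bases of exon with RBIS, a gene on the opposite strand with 470 and 400 counts in WT and 279 and 59 in KD. The libraries came from a stranded kit, but how strand was treated in the counting could not be settled from the files, so reads of the overlap are uncertain. E2F4 had 57.4 and 65.6 CPM in WT, and 62.0 and 82.2 CPM in KD, with overlapping groups and a log2 fold change of 0.22 (SE 0.211). The ratio of E2F5 to E2F4 counts was 0.258 and 0.206 in WT, and 0.101 and 0.0575 in KD.

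The atypical repressors went apart as well. E2F8 had 74.5 and 66.8 CPM in WT and 38.7 and 38.3 CPM in KD, so the KD libraries lay close together and beneath both WT values. Its log2 fold change was -0.87 (SE 0.186). E2F7 had 268 and 250 CPM in WT, and 290 and 215 CPM in KD. Its KD values lay on both sides of WT, and its log2 fold change was -0.03 (SE 0.206). The ratio of E2F8 to E2F7 counts was 0.278 and 0.267 in WT, and 0.134 and 0.178 in KD.

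Of the pocket protein genes, RBL1 had 148 and 146 CPM in WT, and 92.6 and 68.5 CPM in KD. Both KD values were lower than both WT values, with a log2 fold change of -0.86 (SE 0.205). RB1, the retinoblastoma gene, had 152 and 132 CPM in WT and 110 and 73.2 CPM in KD, again with KD below WT, and a log2 fold change of -0.62 (SE 0.236). RBL2 had 49.9 and 50.0 CPM in WT and 54.4 and 37.3 CPM in KD, on both sides of WT. Its log2 fold change was -0.10 (SE 0.227). RBL2 shares 609 bases of exon with AKTIP on the opposite strand, which had 135 and 107 counts in WT and 71 and 22 in KD. The ratio of RBL1 to RBL2 counts was 2.97 and 2.92 in WT, and 1.70 and 1.84 in KD. The ratio of RB1 to RBL2 was 3.05 and 2.64 in WT, and 2.03 and 1.96 in KD. RBL1 and RB1 differed less from each other, with a ratio of 0.975 and 1.102 in WT and 0.839 and 0.935 in KD.

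**Figure D2:**
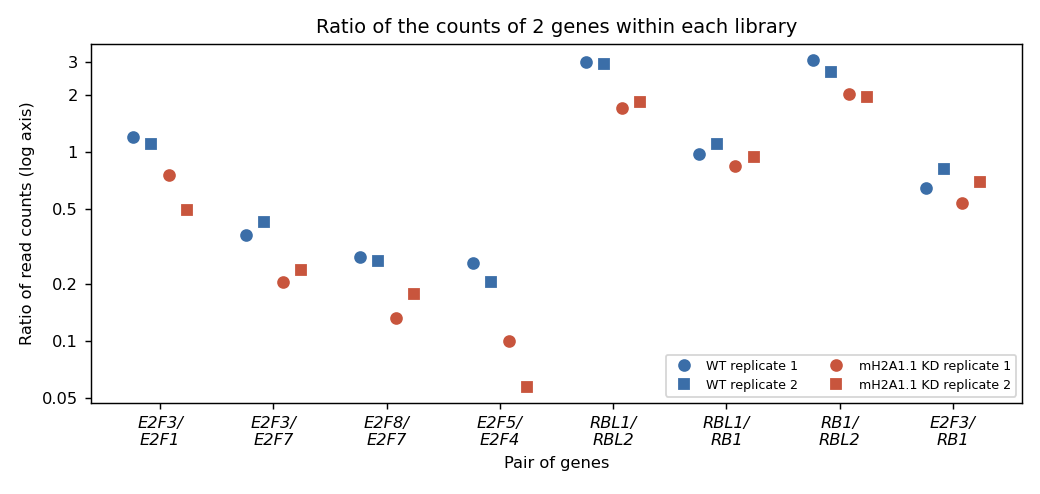
Ratio of the read counts of the first gene to those of the second within each library (log axis), with WT in blue and mH2A1.1 KD in red, circles for replicate 1 and squares for replicate 2. The KD ratios lie under the WT ratios in each pair shown except E2F3 to RB1, where the groups overlap. The gap is small for RBL1 to RB1. Ratios are not corrected for the GC content of the exons.

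Set against its family, the log2 fold change of E2F3 differed by -0.85 from the median of the other 5 counted E2F genes, which was -0.03 with a range from -1.31 to 0.22. E2F3 was not alone at the low end, since E2F8 had nearly the same value and E2F5 a lower one. The log2 fold change of RBL1 differed by -0.50 from the median of RB1 and RBL2, which was -0.36. As a share of the summed RPKM (merged exon lengths) of the E2F genes, E2F3 made up 14.7% and 15.5% in WT, and 10.0% and 8.53% in KD. The share of E2F1 was 23.6% and 27.2% in WT and 25.6% and 33.2% in KD, so its groups overlapped. E2F4 took 12.4% and 13.7% in WT and 15.0% and 19.8% in KD. Of the summed RPKM of the pocket protein genes, RBL1 made up 45.5% and 47.8% in WT and 39.4% and 41.8% in KD. RBL2 made up 11.2% and 12.04% in WT, and 17.0% and 16.7% in KD. By these shares, which are not corrected for GC content, E2F3, E2F5, E2F8 and RBL1 made up less of their family in KD. The shares describe genes that were selected on this contrast.

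Over all 10963 tested genes, fold changes went with the GC content of the exons. The median log2 fold change was -0.47 in the fifth of genes with the lowest GC content (31.0% to 40.4%), and 0.47 in the fifth with the highest (57.0% to 73.8%). The 9 genes cover this range, from RB1 with 36.9% GC to E2F1 with 61.6%. RB1 lay close to its surroundings, since the median of the 640 tested genes within 1 percentage point of its GC content was -0.54. E2F3, at 47.2% GC, and E2F8, at 46.5%, lay in a range where the medians were 0.03 and -0.0031. For RBL1 (40.1%) the median was -0.35, for E2F5 (41.1%) it was -0.30, and for E2F1 it was 0.50. E2F1 thus differed from the median at its GC content by -0.48, and RBL1 by -0.51. When smooth trends with exon length and GC content were removed from each library as offsets, E2F3 and E2F8 moved little, to a log2 fold change of -0.87 (SE 0.113) and -0.85 (SE 0.120). RB1 went to -0.05 (SE 0.0943) and RBL1 to -0.47 (SE 0.0951). E2F5 was at -1.03 (SE 0.216). E2F1 went from 0.01 to -0.45 (SE 0.114) and E2F4 from 0.22 to -0.20 (SE 0.106), so both changed sign. E2F7 went from -0.03 to 0.21 (SE 0.103) and RBL2 from -0.10 to 0.16 (SE 0.120), again with a change of sign. With these offsets the log2 fold change of E2F3 differed by -0.42 from the median of the other E2F genes, and that of RBL1 by -0.52 from the median of RB1 and RBL2. E2F3 thus stood less far from its family with the offsets, whereas the distance of RBL1 from its own was nearly the same. What gave rise to the trend with GC content was not tested.

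**Figure D3:**
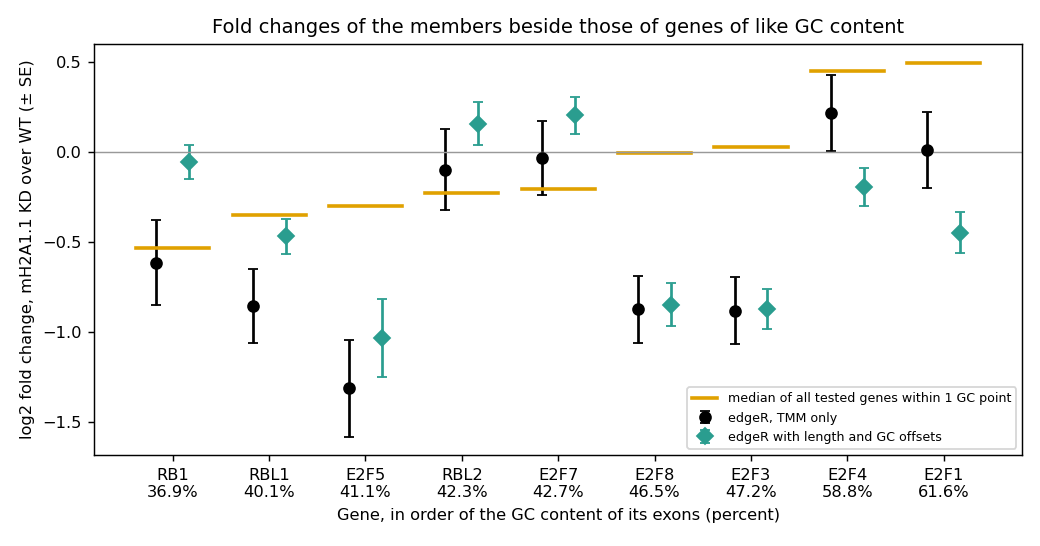
log2 fold change of mH2A1.1 KD over WT (± SE) of the 9 counted genes, in order of exon GC content, from edgeR with TMM factors (black circles) and with length and GC offsets (green diamonds). Yellow lines give the median of all tested genes within 1 percentage point of GC content. The black circles of E2F3, E2F5 and E2F8 lie far below these lines, and that of RB1 lies close to its own. Those of E2F1, RBL1 and E2F4 lie below them by less, and those of E2F7 and RBL2 lie above.

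A gene was called when its fold change passed 1.5 at an adjusted p below 0.1. In edgeR, 0 of the 10963 tested genes were called lower in KD (0.0%) and 0 higher (0.0%), with 1027 lower and 1036 higher genes at an unadjusted p under 0.05 and that fold change. Accordingly 0 of the 9 genes were called. These counts of 0 depended on the libraries, since edgeR called 2424 genes lower and 2320 higher without KD replicate 1, and 600 and 309 without KD replicate 2. Without WT replicate 1 it called 2 and 0, and without WT replicate 2 it called 12 and 5. DESeq2, the tool of the study, called 5.73% of 7765 genes lower and 5.52% higher, and the 3 of 8 genes of the group past these thresholds were E2F3, E2F8 and RBL1, all lower. E2F5 got no adjusted p from DESeq2. With length and GC offsets, edgeR called 3.19% of tested genes lower and 2.16% higher, and E2F3, E2F5 and E2F8 were past the thresholds. For 5 of the 9 genes both KD values were under both WT values, and for 0 they were over them, against 32.4% and 32.5% of all tested genes. The median log2 fold change was -0.62 over the 9 genes and 0.01 over all tested genes. With the offsets, the medians were -0.45 and 0.01. Because the genes were chosen by this contrast, nothing is read from these counts and medians.

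The shallow KD replicate 2 entered each of these values. Without it, with KD replicate 1 alone against both WT libraries, the log2 fold change of E2F3 was -0.78, that of E2F8 -0.87, that of E2F5 -1.18, that of RBL1 -0.66 and that of RB1 -0.36. Without KD replicate 1, the values were -1.01 for E2F3, -0.90 for E2F8, -1.60 for E2F5, -1.11 for RBL1 and -0.97 for RB1. E2F8 was thus nearly equal in both KD libraries, while E2F3, E2F5, RB1 and RBL1 were lower in KD replicate 2 than in KD replicate 1.

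The ChIP-seq peaks, which played no role in the WT against KD values, were next read at each gene in WT cells. Deposited peaks are runs of bins of 3000 bp, with no usable score. An mH2A1.1 peak lay within 500 bp of the gene start at 3 of the 10 genes (E2F1, E2F3 and RBL1), against 46.9% of 10943 tested genes with a position. A total mH2A1 peak lay there at 3 others (E2F4, E2F5 and RBL2), against 18.4%. A common peak, defined as an mH2A1.1 peak that shares at least 1 bp with a total mH2A1 peak, covered the start of 1 gene, E2F1, against 26.2%. E2F2, the gene that failed the filter, had no peak at its start, so these counts also hold for the 9 tested genes. With 10 genes and 1 library per antibody, no difference from the background was tested.

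The shape of the peaks differed between genes. At E2F3, an mH2A1.1 peak of 15000 bp (chr6:20400001-20415000) ran from -1878 to 13122 bp of the start and covered 14.3% of the gene. A total mH2A1 peak (chr6:20394001-20400000) ended at its upstream edge without sharing a base, so the E2F3 peak does not count as common although the peaks adjoin. At RBL1, the mH2A1.1 peak was a single bin (chr20:37095001-37098000) that spans the start, and another bin (chr20:37065001-37068000) lay inside the gene. At E2F1, an mH2A1.1 peak of 63000 bp (chr20:33648001-33711000) covered the whole gene of 10909 bp and both flanks. It was common through a total mH2A1 peak of 12000 bp whose near edge was at -615 bp from the start. The pair E2F3 and E2F1, which differed in log2 fold change, both had mH2A1.1 at the start, over part of the gene in one and over all of it in the other.

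Genes without mH2A1.1 at the start included members with lower and with overlapping levels in KD. E2F8 (chr11:19224063-19241620) had no peak of either antibody within 5 kb, and its nearest mH2A1.1 peak was 47620 bp from the start. E2F5 had a single bin of total mH2A1 over its start, and its nearest mH2A1.1 peak was 67847 bp away. RB1 (chr13:48303744-48599436) had 2 total mH2A1 bins inside the gene and no mH2A1.1 peak closer to its start than 69744 bp. E2F4 (chr16:67192155-67198918) was wholly covered by a total mH2A1 peak, with an mH2A1.1 peak that stopped at -1154 bp from the start. RBL2 (chr16:53433977-53491648) had total mH2A1 over the start only, and E2F7 (chr12:77021248-77065569) a single mH2A1.1 bin deep inside the gene, from 31569 to 34569 bp after the start. E2F2, without counts, had no peak within 5 kb, and the nearest was 48768 bp from its start. Of the 5 genes with both KD libraries below WT, 2 had mH2A1.1 at the start (E2F3 and RBL1) and 3 did not (E2F5, E2F8 and RB1). Among all tested genes with a position, 46.9% had such a peak. Neither the E2F3 nor the RBL1 peak was common, and the study kept common peaks for its analysis. The 5 genes were grouped by the contrast that selected the members, so nothing is read from this count.

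**Figure D4:**
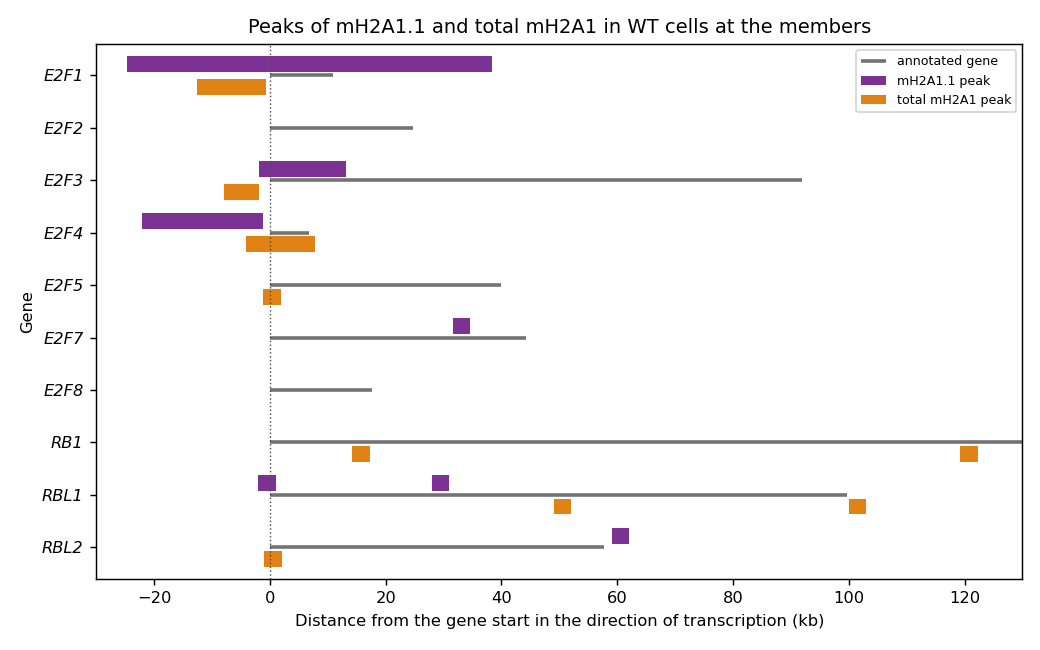
Peaks of mH2A1.1 (purple) and total mH2A1 (orange) in WT cells within 5 kb of each of the 10 genes, against the distance from the gene start in the direction of transcription (kb), with the annotated gene as a grey line. The start of E2F1, E2F3 and RBL1 lies under mH2A1.1, the start of E2F4, E2F5 and RBL2 under total mH2A1, and E2F2 and E2F8 have no peak; RB1 runs past the right edge.

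The genes that work with or under the E2F factors were read from 5 lists. These genes were not part of the selected 10, but the lists were written with earlier results of these data known. Their counts are therefore a description and are not independent of this contrast. In edgeR 0 genes of each list were called, so the genes named are those with the smallest unadjusted p in each direction. Without KD replicate 1, edgeR called 24 genes of the lists lower and 8 higher, beside 2424 and 2320 of all 11351 genes then tested. Without KD replicate 2 it called 9 and 0, beside 600 and 309 of 11290. The counts of each list are given beside the shares over all tested genes. Of these, 32.4% had both KD values under both WT values and 32.5% over them. DESeq2 called 5.73% of its 7765 genes lower and 5.52% higher. E2F6, a repressor of the family outside the 10 genes, had 29.7 ± 0.204 CPM in WT and 22.6 ± 5.94 CPM in KD (SD, n = 2). Its adjusted p in edgeR was 0.361.

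The first list holds the DP partners and the MuvB complex, which pairs with RBL1, RBL2 or MYB proteins at cell cycle genes. It also holds E2F6, MYBL1, MYBL2 and FOXM1, so its counts and median are not those of the complex alone. Of the 11 genes, 10 were tested. Both KD libraries were below WT for 6 (all tested genes 32.4%) and above for 0 (32.5%), and the median log2 fold change was -0.25. DESeq2 called 2 lower (all 5.73%) and 0 higher (5.52%). With length and GC offsets edgeR called 1 lower (all 3.19%) and 0 higher (2.16%). LIN9, a MuvB subunit, had 27.3 ± 3.48 CPM in WT and 14.0 ± 2.40 CPM in KD, with an adjusted p = 0.194 in edgeR and 0.0860 in DESeq2. MYBL1 had 135 ± 15.0 CPM in WT and 81.1 ± 17.8 CPM in KD, with an adjusted p = 0.194 in edgeR and 0.0757 in DESeq2. On the upper side, LIN52 and TFDP2 had log2 fold changes of 0.09 and 0.01. TFDP1 and TFDP2, which encode the DP partners, both overlapped between the groups.

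The list of G1 cyclins and CDKs holds the cyclins and kinases that phosphorylate pocket proteins, and also CCNA2, a cyclin of S and G2 phase, and CDC25A, a phosphatase that activates CDKs. All 10 genes were tested, with a median log2 fold change of -0.30. KD was below WT for 6 (all tested genes 32.4%) and above for 1 (32.5%). DESeq2 called 2 lower (all 5.73%) and 1 higher (5.52%). CCNA2, cyclin A2, had 230 ± 13.9 CPM in WT and 113 ± 26.8 CPM in KD, with an adjusted p = 0.176 in edgeR and 0.00633 in DESeq2. CCNE2, cyclin E2, had 71.8 ± 4.26 CPM in WT and 35.9 ± 16.6 CPM in KD, with an adjusted p = 0.194 in edgeR and 0.0568 in DESeq2. CCND3, cyclin D3, was the gene called higher by DESeq2, with 116 ± 16.8 CPM in WT and 195 ± 46.2 CPM in KD (adjusted p = 0.0712, and 0.194 in edgeR). CCND2 had a log2 fold change of 0.17. With length and GC offsets, 1 gene of this list, CCNA2, was called lower (all 3.19%) and 0 were called higher (2.16%).

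Among the CDK inhibitors, CDKN2A and CDKN2B, which restrain CDK4 and CDK6, had 0 counts in all libraries. The 4 tested genes overlapped between the groups. Their median log2 fold change was 0.09, and -0.20 with length and GC offsets. CDKN1A, which encodes p21, had a log2 fold change of -0.17, and -0.61 with length and GC offsets, where edgeR called it lower (all tested genes 3.19%). CDKN2D was at 0.38 and CDKN2C at 0.12, and DESeq2 called 0 of the 4 genes.

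Among the E2F targets of S phase, 24 of 28 genes were tested. MCM5, CDC45, POLA1 and CHAF1B lie on the chromosomes that were not measured in KD replicate 2. The median log2 fold change was -0.33, and KD was below WT for 13 genes (all tested genes 32.4%) and above for 0 (32.5%). DESeq2 called 3 lower, CHEK1 and RRM2 among them, and 0 higher, against 5.73% and 5.52% of all genes. With length and GC offsets 4 were called lower (all tested genes 3.19%) and 0 higher (2.16%). CHEK1, a checkpoint kinase, had 134 ± 0.691 CPM in WT and 61.5 ± 24.2 CPM in KD, with an adjusted p = 0.194 in edgeR and 0.0123 in DESeq2. On the upper side, TK1 (thymidine kinase) and MCM7 (a helicase subunit) had log2 fold changes of 0.44 and 0.26, both with overlapping groups. RRM2, a subunit of ribonucleotide reductase, is named after its values were seen, with 131 ± 4.21 CPM in WT and 80.6 ± 7.65 CPM in KD.

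Of the G2/M genes controlled by MYBL2 and FOXM1, all 20 were tested, with a median log2 fold change of -0.38. KD was below WT for 15 (all tested genes 32.4%) and above for 1 (32.5%). DESeq2 called 5 lower (CDK1, CENPE, CENPF, KIF11 and TOP2A) and 0 higher, against 5.73% and 5.52% of all genes. KIF11, a mitotic kinesin, had 335 ± 7.08 CPM in WT and 190 ± 42.0 CPM in KD, with an adjusted p = 0.194 in edgeR and 0.0339 in DESeq2. CDK1, the mitotic kinase, had 187 ± 27.5 CPM in WT and 85.0 ± 40.7 CPM in KD, with an adjusted p = 0.194 in edgeR and 0.0195 in DESeq2. CCNF was the gene above WT in both KD libraries, with a log2 fold change of 0.63, and PLK1 was at 0.37 with overlapping groups. With the offsets none of the 5 genes called by DESeq2 was past the thresholds. The 2 genes of the list that were, MKI67 and NUSAP1, were both lower (all tested genes 3.19% lower and 2.16% higher). CENPE, CENPF, TOP2A, MKI67 and NUSAP1 are named after their values were seen. The offsets left the median of the S phase list at -0.29 and that of the G2/M list at -0.32, against 0.01 for all tested genes.

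**Figure D5:**
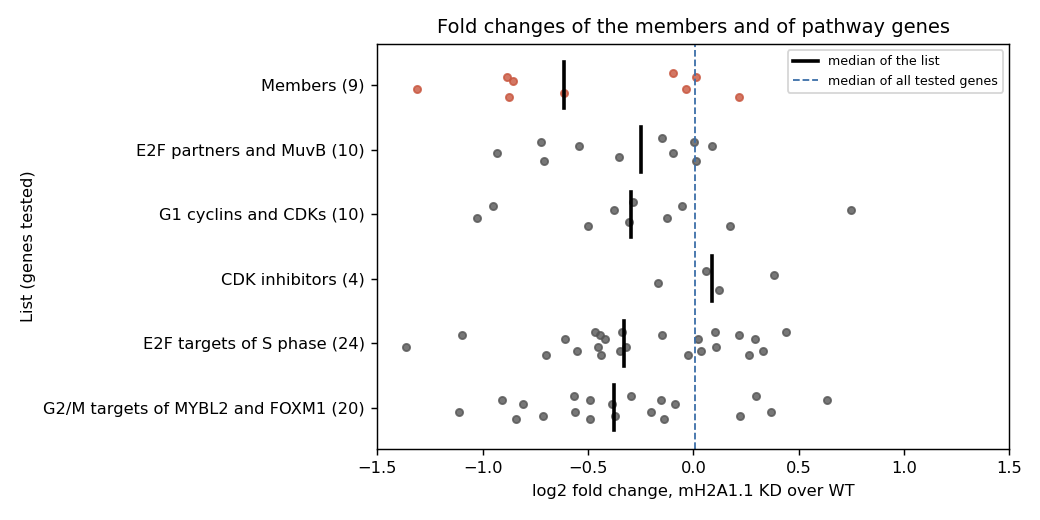
log2 fold change of mH2A1.1 KD over WT for the 9 counted genes of the group (red) and for the tested genes of 5 pathway lists (grey), with the number tested in parentheses, black lines for list medians and a dashed line for the median of all tested genes (0.01). List medians run from -0.38 to 0.09, and each list holds genes on both sides of 0.

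The genes with the profiles most like E2F3 and RBL1 were found by the Euclidean distance between log2 CPM over the 4 libraries, each centred on its mean. For E2F3 the 5 nearest were RPGRIP1L, ETV7, PRKAR2B, TBC1D8 and TXNDC16, at distances from 0.0355 to 0.0979. ETV7 and PRKAR2B had at most 36 counts in a library. RBL1 was at a distance of 0.184 from E2F3 (rank 46 by nearness), E2F8 at 0.247 (rank 139) and RB1 at 0.421 (rank 854). E2F5 was at 0.490 (rank 1413) and E2F1 at 1.005 (rank 5691), so many genes outside the group were nearer than these. For RBL1 the 5 nearest were CDKN3, ULK2, FAM161A, MND1 and PAQR3, at distances from 0.0268 to 0.0540. The genes share these 4 libraries and the 2 groups, so the distances are a description only.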

How the data were processed

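The members and the pathway lists were chosen with earlier results of these data known. The deposited RNA-seq values are read counts per gene. Per the methods of the study, the authors aligned reads to GRCh38 with STAR 2.5.1, removed low-quality reads and duplicates and counted genes with HTSeq at default parameters. The annotation behind the counts is not given in the sources used here. Removal of duplicates without molecular identifiers can also remove distinct molecules of densely covered genes. The other deposited values are positions of peaks, which the authors called against input with normR on single libraries, with parameters that differed between data sets. As every score in these lists is 0, no stricter threshold could be tried.

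Counts were fitted with edgeR 4.0.16 in R 4.3.3 (TMM factors, its filter on low counts, the quasi-likelihood test and Benjamini-Hochberg adjustment). The alternatives were DESeq2 1.42.0, which the study used, other size factors, no filter on low counts, length and GC offsets (lowess, span 0.3), a replicate block and the omission of each library. Standard errors of edgeR came from its F statistic. Genes on chromosomes where KD replicate 2 held under 1% of the other libraries' share of counts were taken as not measured. Of the 23167 identifiers, 23061 matched GENCODE release 44, which also gave gene positions and merged exon lengths for RPKM, and the other 106 held between 0.120% and 0.176% of the counts. Levels are TMM-normalized. The smallest two-sided p of an exact permutation test of 2 against 2 libraries is 0.333, so none was run. Named genes are the 10 members, MACROH2A1, E2F6, genes that overlap members, the 5 nearest profiles of E2F3 and of RBL1 and, in a list without a call by edgeR, the 2 genes with the smallest unadjusted p in each direction. The values of 1 gene that this rule names are not reported here.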

Additional observations from a re-analysis of the deposited data

How the results depend on the processing

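The number of genes called depended on the fit. In place of 0 lower and 0 higher genes, DESeq2 called 445 and 429 of 7765 genes. Without a filter on low counts edgeR called 1115 and 1024 of 15068, and with length and GC offsets 350 and 237 of 10963. The pathway genes called were 12 lower and 1 higher in DESeq2, 15 and 2 without the filter, and 9 and 0 with the offsets. Of the E2F and pocket protein genes, 3 were past the thresholds in DESeq2, 5 without the filter and 3 with the offsets. In each case they were lower in KD. These genes were selected on this contrast, and the pathway lists were written with earlier results known, so nothing is read from these counts. In edgeR, RLE size factors, and the whole table with zeros taken as counts, called 0 genes. DESeq2 on the whole table called 535 genes lower and 410 higher. With 1 library left out, the lone library of a group was assumed to vary like the other group. The genes called were then between 2 and 2424 lower and between 0 and 2320 higher, with between 0 and 24 pathway genes lower and between 0 and 8 higher, and between 0 and 5 of the E2F and pocket protein genes lower. The highest counts came without KD replicate 1. Leaving out any 1 of the 4 libraries ended the count of 0 lower genes.

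The replicate block, with the replicate number as a term in edgeR, called 1137 genes lower and 1071 higher of 10963. It called 14 and 2 pathway genes, and 5 of the 9 tested E2F and pocket protein genes. The labels share only numbers, with 2 pairs, and deviations of same-numbered libraries from their group means correlated at 0.252 across genes, which are not independent replicates. At the gene starts, common peaks alone left 1 of the 3 genes with mH2A1.1, and 0 had a common peak when at least 0.5 of the mH2A1.1 peak had to be shared. Where counts differ between settings, the cause was not tested beyond these fits. Depth limits E2F5, with 10 counts in KD replicate 2, and E2F2, with 0 in each library. With canonical transcript lengths in place of merged exons, the WT level of E2F4 went from 17.1 to 29.2, that of RB1 from 22.1 to 29.8, that of RBL2 from 6.16 to 10.3 and that of E2F5 from 2.37 to 7.22 RPKM.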
